A study of Mus musculus with 16 samples.

Results

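The 8 genes described here encode transcription factors that are used to define neural stem cells: Sox2, Sox9, Pax6, Nr2e1, Emx2, Nfia, Nfib and Nfix. They were taken by symbol, and all 8 were present among the 20409 genes measured. Each was followed through 16 libraries of ribosome footprints and cytoplasmic RNA from adult neural stem cells. Male FVB/N mice aged 8 to 10 weeks, either Fmr1 KO (Fmr1-/y) or WT littermates, gave the cultures. These began from dissected dentate gyrus and grew in EGF and FGF2 at 20 ng/ml each. All cultures received cycloheximide at 100 µg/ml for 10 min before lysis, and each of the 4 replicates per genotype was a separate isolation. The study's title concerns how FMRP, the product of Fmr1, discriminates among mRNAs, and the comparisons below ask whether these regulators differed in RNA, in footprints, or in footprints per RNA.

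Neural stem cells are kept in a dividing, undifferentiated state by a set of DNA-binding proteins that act together on shared enhancers. Sox2, a SOX factor with an HMG-box, maintains stem cells of the embryonic and adult brain. Sox9, a SOX factor of another subgroup, acts in stem cells and in the switch to glial fates, and its expression continues in mature astrocytes. Pax6 is a paired-box and homeobox factor of radial glia. Nr2e1, also called Tlx, is an orphan nuclear receptor that acts mainly as a repressor and is needed for proliferation of adult neural stem cells. Emx2 is a homeobox factor that patterns the cortex and the hippocampus. Nfia, Nfib and Nfix are nuclear factor I (NFI) proteins. They promote glial differentiation and hippocampal development, and Nfix is known for a role in stem cell quiescence.

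On the GRCm38.p6 assembly, Sox2 lies on chromosome 3 at 34649995 to 34652461, Sox9 on chromosome 11 at 112782210 to 112787757, Pax6 on chromosome 2 at 105668896 to 105698410, and Nr2e1 on chromosome 10 at 42561963 to 42583590. Emx2 lies on chromosome 19 at 59458690 to 59465357, Nfia on chromosome 4 at 97578066 to 98118876, Nfib on chromosome 4 at 82290173 to 82506751, and Nfix on chromosome 8 at 84704712 to 84801238. RefSeq places the whole of Sox2, 2467 bases, within the noncoding gene Sox2ot, and places 1435 bases of Pax6 within Pax6os1 and 1091 within Elp4. These are overlaps of gene spans, not of exons, and of the overlapping genes named only Elp4 is among the genes measured. Whether counting used strand is not given in the sources used here, and how reads in these overlaps were assigned is not known.

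Upstream windows of 250 bases were available from RefSeq (GRCm38.p6) for 6 of the 8 genes (not Sox9 or Nfib), 10 windows in all. Those of 3 genes are shown because Sox2 levels differed in mean between sets of cultures and because Pax6 and Nr2e1 had alike profiles. Each ends at the base before the annotated start, written 5′ to 3′ on the gene's strand. Capitals mark TTGGC (or GCCAA on the other strand), the element that NFI proteins bind, and ACAAAG (or CTTTGT), a SOX motif.
Sox2, chr3:34649745-34649994, plus strand: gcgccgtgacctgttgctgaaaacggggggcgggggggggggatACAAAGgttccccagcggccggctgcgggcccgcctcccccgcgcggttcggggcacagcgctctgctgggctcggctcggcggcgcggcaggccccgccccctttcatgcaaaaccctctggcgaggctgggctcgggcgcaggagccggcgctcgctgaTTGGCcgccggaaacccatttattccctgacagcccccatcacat
Pax6, chr2:105668646-105668895, plus strand: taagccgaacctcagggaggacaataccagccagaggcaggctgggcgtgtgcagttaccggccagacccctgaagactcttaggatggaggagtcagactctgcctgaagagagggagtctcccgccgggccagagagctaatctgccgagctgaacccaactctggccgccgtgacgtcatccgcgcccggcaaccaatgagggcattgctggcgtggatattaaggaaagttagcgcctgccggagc
Nr2e1, chr10:42583591-42583840, minus strand: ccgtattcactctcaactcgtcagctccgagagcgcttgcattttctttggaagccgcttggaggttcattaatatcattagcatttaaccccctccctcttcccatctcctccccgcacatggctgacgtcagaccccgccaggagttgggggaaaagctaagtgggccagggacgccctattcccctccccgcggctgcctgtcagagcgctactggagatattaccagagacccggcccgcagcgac
The Sox2 window held 1 copy of TTGGC, whose first base stood 45 bases before the start, and 1 copy of ACAAAG at 206 bases. That copy of TTGGC overlaps ATTGG, the reverse of the CCAAT box. A second Pax6 window, chr2:105682213-105682462, not printed, held ACAAAG at 154 bases. The Nr2e1 window and the Pax6 window shown held neither of the marked motifs, and the Pax6 window shown held a CCAAT box at 54 bases. Among all 32851 mouse windows of that length, 41.5% held TTGGC on either strand, 16.5% held ACAAAG and 33.8% held CCAAT. These matches describe letters in a window and nothing about binding.

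Library totals were 9397590 to 17147600 estimated counts in footprints and 5330020 to 6580300 in RNA, and the 8 genes together took 0.0807% to 0.207% of a library. Fmr1 averaged 19.6 ± 6.97 CPM in KO footprints and 144 ± 10.2 CPM in WT footprints (CPM are counts scaled per library to 1e+06 after TMM normalisation; SD, n = 4 each). Fmr1 RNA was 3.35 to 30.9 CPM in KO libraries and 27.4 to 107 CPM in WT libraries, the highest being WT replicate 2, and KO lay below WT in every same-numbered pair. The stem cell label was checked against 14 markers of neural stem and progenitor cells. Of these, 11 averaged at least 5 CPM in every group, and the stem cell intermediate filament gene Nes averaged 2152 CPM in KO footprints and 2076 CPM in WT footprints. Hopx, another of those markers, stayed under 2 CPM in every library. Astrocyte markers were also present, with 8 of 10 at or above 5 CPM in footprints and 7 of 10 in RNA. So were markers of the oligodendrocyte lineage, with 6 to 7 of 12 at or above 5 CPM by group. Of the markers of neuroblasts and neurons, 4 to 7 of 12 reached that level. By contrast, 8 microglial markers summed to at most 1.30 CPM. The 8 endothelial and mural markers summed to 6.27 to 40.6 CPM per library, with Flt1 averaging 7.31 to 14.9 CPM by group. Cldn5, also in that list, was at 0 in every library. The 6 ependymal markers summed to 12.8 to 79.1 CPM. Same-numbered KO and WT libraries deviated together from their group means, and replicates 1 and 2 stood apart from replicates 3 and 4. Identifier length in the footprint libraries was 8 nt for replicates 3 and 4 but 5 nt for replicates 1 and 2, so in footprints this split of the cultures and the library design cannot be told apart.

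Levels between genes were compared in the deposited TPM, which are scaled by transcript length. Sox2, Sox9, Nfia, Nfib and Nfix formed an abundant set, and Pax6, Nr2e1 and Emx2 a scarce set. In KO footprints the mean TPM was 223 for Nfib, 192 for Sox2, 154 for Nfia, 147 for Sox9 and 102 for Nfix, against 15.5 for Emx2, 14.5 for Pax6 and 8.75 for Nr2e1. In WT footprints the order was Sox2 at 225, Sox9 at 204, Nfib at 198, Nfia at 148 and Nfix at 101, then Emx2 at 16.5, Pax6 at 12.5 and Nr2e1 at 9.25 TPM. Within the abundant set, the ranges of neighbours in the order overlapped in every group, although all 4 libraries of a group put Sox9 above Nfix in KO footprints, Nfib above Nfia and Nfia above Nfix in WT footprints, Nfix above Sox2 in KO RNA and Nfia above Nfib in WT RNA. The step down to the scarce set was free of overlap in KO footprints, WT footprints, KO RNA and WT RNA. Within the scarce set, the ranges of neighbours did not overlap between Pax6 and Nr2e1 in KO footprints or between Nr2e1 and Emx2 in WT RNA, and overlapped elsewhere. In RNA the order changed: Nfix was highest, with a mean of 337 TPM in KO and 302 TPM in WT, and Emx2 lowest, with 11 TPM in KO and 9.5 TPM in WT. By mean, Nfix was thus at the top in RNA and below Nfib, Sox2, Nfia and Sox9 in footprints. Emx2 was by mean at the bottom in RNA and above Pax6 and Nr2e1 in footprints. By library, Emx2 was above Pax6 in all 4 WT footprint libraries but in only 2 of 4 KO ones, being equal in KO replicates 3 and 4. Over all genes above 0, the abundant set lay between the 85.3th and the 96.3th percentile of TPM, and the scarce set between the 30.0th and the 58.2th percentile.

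**Figure D1:**
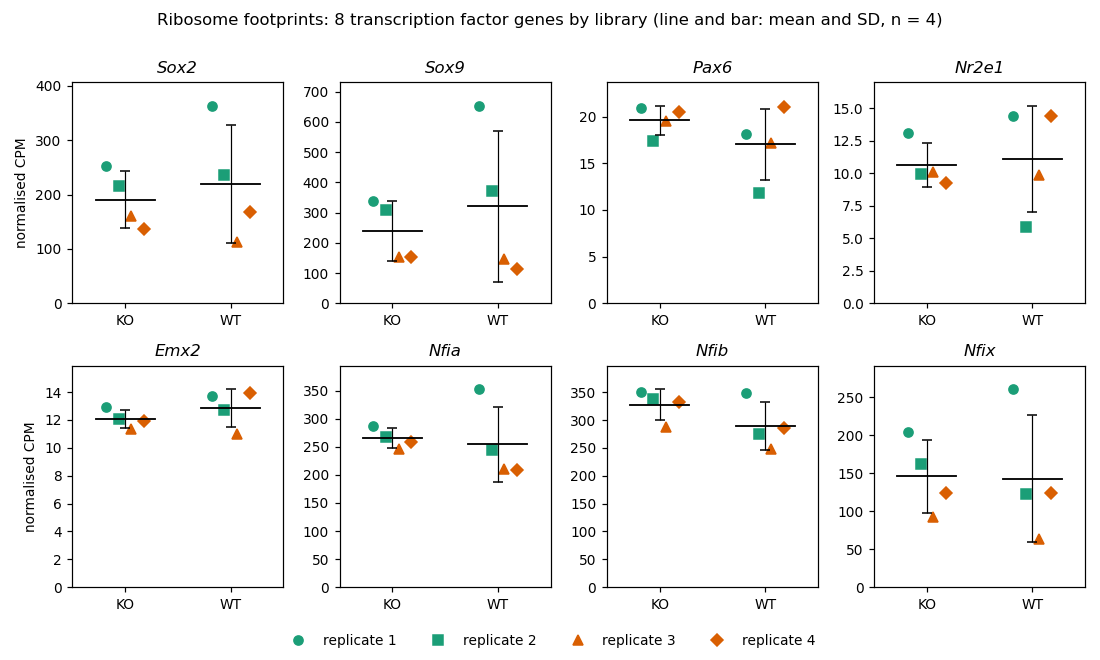
Footprint level of each of the 8 genes in normalised CPM (linear axes from 0), with KO left of WT, 1 point per library and shapes for replicates. Lines and bars give the mean and SD of 4 libraries. The KO and WT points overlap for every gene, and for Sox2 and Sox9 the triangles and diamonds (replicates 3 and 4) sit below the circles and squares in both genotypes.

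No member passed the test between KO and WT cultures in RNA, in footprints or in translational efficiency (footprints relative to RNA, tested as the assay by genotype interaction). By edgeR's quasi-likelihood test with Benjamini-Hochberg adjustment over all genes, 0 of 8 passed in RNA, where 0.00901% of 11097 genes did, and 0 of 8 in footprints, where 0.0349% of 11472 did. In translational efficiency 0 of 8 passed, with 0% of 10863 genes. That fit takes footprint and RNA libraries of one lysate as independent, and has a term for identifier length in footprints only. It gave few low p-values, with 14 genes at an unadjusted edgeR p under 0.05. With each culture as a block there were 152 such genes, and 0 of 8 members passed. An unadjusted p under 0.05 was found for 0 members in RNA (1.87% of genes), 0 in footprints (4.59%) and 0 in translational efficiency (0.129%), and DESeq2 and limma-voom called 0 members as well. KO and WT ranges overlapped for all 8 genes in RNA (background of ranges without overlap 1.28%), in footprints (1.88%) and in translational efficiency (0.875%). Cultures were measured in bulk, so fewer cells of a type and less RNA per cell cannot be told apart.

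Among the SOX factors, Sox2 footprints were 252, 215, 160.3 and 136 CPM in KO replicates 1 to 4, and 364, 236, 112 and 169 CPM in WT replicates 1 to 4. Sox2 RNA was 244, 236, 126 and 151 CPM in KO and 310.3, 241, 122 and 152 CPM in WT. Both genotypes held high values in replicates 1 and 2 and low values in 3 and 4, and the ranges overlapped. The log2 fold change of KO over WT was -0.12 (SE 0.35) in RNA, -0.14 (SE 0.21) in footprints and 0.00 (SE 0.43) in translational efficiency. Sox9 footprints were 338, 308, 154 and 155 CPM in KO and 655, 372, 147 and 114 CPM in WT. Sox9 RNA was 345, 278, 176 and 199.9 CPM in KO and 652, 311, 219 and 147 CPM in WT. WT replicate 1 was the highest library in both assays. The log2 fold change of Sox9 was -0.41 (SE 0.44) in RNA, with a 95% interval of -1.40 to 0.58, and -0.21 (SE 0.25) in footprints. Without WT replicate 1 these values became 0.15 and 0.06, so the direction rests on that culture.

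Among the scarce factors, Pax6 footprints were 21.0, 17.4, 19.5 and 20.5 CPM in KO and 18.1, 11.9, 17.15 and 21.0 CPM in WT. Pax6 RNA was 39.1, 43.0, 31.7 and 29.1 CPM in KO and 35.7, 30.9, 22.9 and 28.03 CPM in WT. Pax6 RNA was above its same-numbered WT library in 4 of 4 pairs, as 8.13% of all genes were. Its log2 fold change was 0.28 (SE 0.23) in RNA, with a 95% interval of -0.24 to 0.80, and 0.21 (SE 0.18) in footprints. Nr2e1 footprints were 13.1, 9.98, 10.1 and 9.27 CPM in KO and 14.4, 5.85, 9.84 and 14.4 CPM in WT, and WT replicate 2 was the lowest library. Nr2e1 RNA was 22.9, 20.1, 19.04 and 15.4 CPM in KO and 17.9, 20.9, 12.5 and 18.0 CPM in WT. Its log2 fold change was 0.16 (SE 0.25) in RNA and -0.06 (SE 0.31) in footprints.

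Emx2 had the steadiest footprints of the 8 genes, at 12.9, 12.1, 11.3 and 12.0 CPM in KO and 13.7, 12.7, 10.96 and 14.0 CPM in WT. Emx2 RNA was 7.28, 7.47, 4.07 and 4.72 CPM in KO and 4.71, 4.00, 5.44 and 6.73 CPM in WT. KO libraries were above WT in RNA of replicates 1 and 2 and below it in replicates 3 and 4. Those RNA values rest on 24 to 45 counts, with a counting error of 20.4% to 14.9%. The log2 fold change of Emx2 was 0.17 (SE 0.36) in RNA, -0.09 (SE 0.15) in footprints and -0.24 (SE 0.35) in translational efficiency.

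Among the NFI factors, Nfia footprints were 288, 268, 247 and 259 CPM in KO and 352, 244, 211 and 209 CPM in WT. Nfia RNA was 298, 373, 283 and 262 CPM in KO and 369, 354, 272 and 194 CPM in WT. The KO values lay inside the WT range in footprints. Nfib footprints were 351, 338, 287 and 333 CPM in KO and 349, 275, 247 and 286 CPM in WT, above WT in 4 of 4 pairs, as 7.61% of genes were. Nfib RNA was 185, 336, 167 and 148 CPM in KO and 232, 269, 145 and 109 CPM in WT. Nfib had the narrowest interval in footprints, a log2 fold change of 0.18 (SE 0.13) with a 95% interval of -0.11 to 0.47. Nfix footprints were 204, 162, 93.0 and 123 CPM in KO and 261, 123, 63.2 and 123 CPM in WT. Nfix RNA was 500.3, 463, 262 and 377 CPM in KO and 544, 288, 207 and 377 CPM in WT. The RNA log2 fold change was 0.03 (SE 0.25) for Nfia, 0.15 (SE 0.36) for Nfib and 0.18 (SE 0.33) for Nfix, and the footprint one 0.08 (SE 0.15) for Nfia and 0.07 (SE 0.29) for Nfix.

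**Figure D2:**
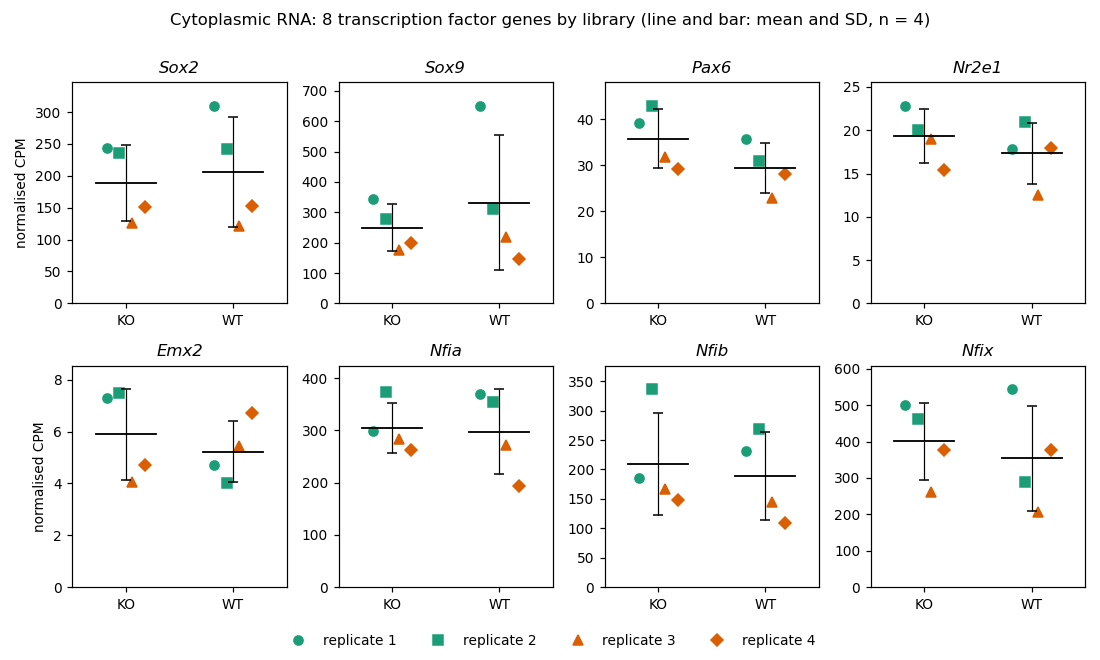
Cytoplasmic RNA level of each of the 8 genes in normalised CPM (linear axes from 0), with KO left of WT and 1 point per library. Lines and bars give the mean and SD of 4 libraries. Emx2 shows KO circles and squares above the WT ones and KO triangles and diamonds below them.

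**Figure D3:**
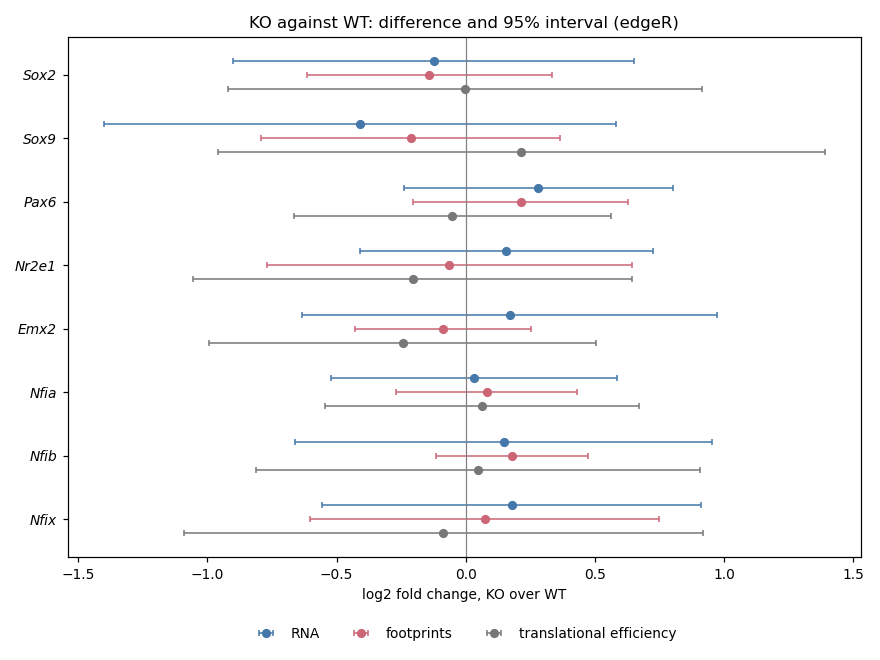
Difference between KO and WT (log2 fold change, KO over WT) for each gene in RNA, footprints and translational efficiency, with points for the edgeR estimate and bars for its 95% interval. All 24 intervals cross 0, and the fits differ, since footprints have a term for replicate set and RNA has none.

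Over the 8 genes the median log2 fold change of KO over WT was 0.15 in RNA against 0.01 over all genes tested, and 6 of 8 were above 0, as were 51.3% of all genes. In footprints the median was 0.01, equal to that of all genes to 2 decimals, with 4 of 8 above 0. In translational efficiency it was -0.03 against 0.01, with 3 of 8 above 0. These counts moved with 1 library left out. Without WT replicate 1, 8 of 8 were above 0 in RNA and 7 of 8 in footprints, with a footprint median of 0.20. Then 2 members had an unadjusted edgeR p under 0.05 in footprints, as did 628 of 11541 genes, and 0 in RNA. Without WT replicate 3, 4 of 8 were above 0 in RNA and 3 of 8 in footprints, with a footprint median of -0.11. For a typical gene the SE was 0.33 in RNA, 0.20 in footprints and 0.40 in translational efficiency on the log2 scale, the RNA fit having no term for replicate set. With that term, the SE of the 8 genes in RNA was 0.16 to 0.36, against 0.23 to 0.44 without it, and 0 of 8 passed.

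The genotype difference was recomputed within each set of cultures. In footprints, Sox9 had a log2 fold change of KO over WT of -0.66 in replicates 1 and 2 and 0.23 in replicates 3 and 4. In RNA, Emx2 had 0.74 in replicates 1 and 2 and -0.47 in replicates 3 and 4. The direction of both genes differed between the sets, yet the interaction of genotype with replicate set did not pass for either: 0.91 (SE 0.41, unadjusted p = 0.0612, edgeR) for Sox9 footprints and -1.23 (SE 0.61, unadjusted p = 0.0815, edgeR) for Emx2 RNA, each with an adjusted p of 1.00. By that interaction 0 of 8 genes passed in RNA and 0 of 8 in footprints, with 0% of all genes in either, and 0 members had an unadjusted p under 0.05 (1.2% of genes in RNA, 2.19% in footprints). DESeq2 and limma-voom also called 0 members.

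Footprints stood in very different proportion to RNA among the 8 genes. Emx2 and Nfib had more footprints than RNA on the CPM scale, Sox2, Sox9 and Nfia about as many, and Nr2e1, Pax6 and Nfix fewer. CPM are scaled within each assay, so a ratio is relative to other genes and its median over all genes was -0.15 on the log2 scale in KO and in WT cultures.

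Emx2 had a log2 ratio of footprint to RNA CPM of 0.83, 0.69, 1.48 and 1.34 in KO replicates 1 to 4, and 1.54, 1.67, 1.01 and 1.05 in WT replicates 1 to 4. Those means lay at the 83.4th percentile of genes in KO and the 87.7th in WT. Nfib had 0.92, 0.01, 0.79 and 1.17 in KO and 0.59, 0.03, 0.77 and 1.40 in WT, with replicate 2 lowest in both genotypes. At the other end, Nfix had -1.29, -1.51, -1.49 and -1.61 in KO and -1.06, -1.22, -1.71 and -1.61 in WT. Its 8 values were all below those of the other genes in the same culture except Nr2e1 in WT replicate 2 and Pax6 in WT replicate 2. Nfix means lay at the 14.4th percentile in KO and the 15.7th in WT. Pax6 averaged -0.85 ± 0.34 in KO and -0.80 ± 0.47 in WT, and Nr2e1 -0.86 ± 0.12 in KO and -0.71 ± 0.75 in WT (SD, n = 4 each). Sox2, Sox9 and Nfia had means between -0.22 and 0.06 in both genotypes, near the middle of all genes.

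**Figure D4:**
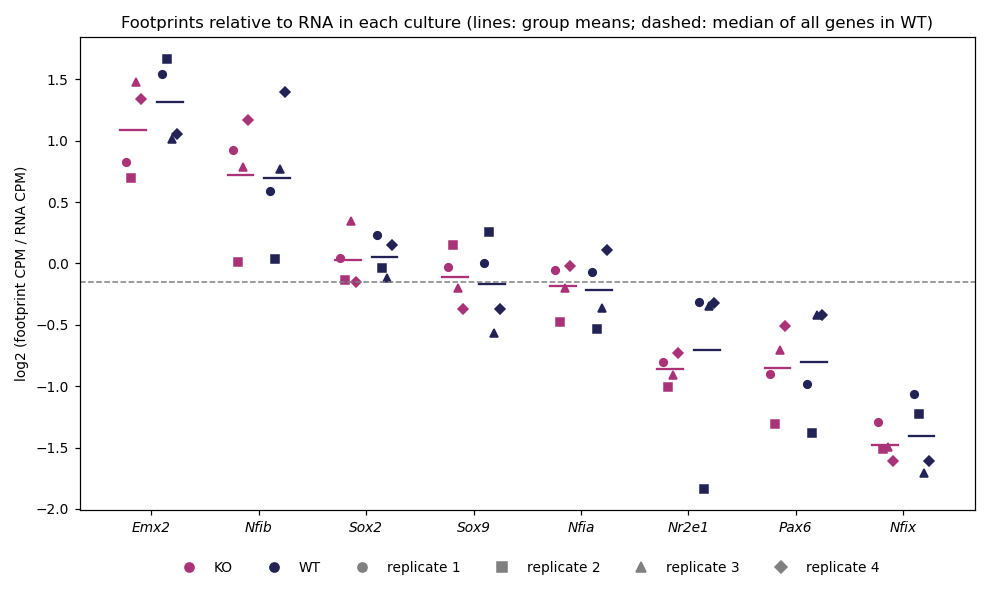
Log2 ratio of footprint CPM to RNA CPM in each culture, KO left of WT within each gene, with lines for the group means of 4 cultures and a dashed line at the median of all genes in WT (-0.15). Genes run from Emx2 at the top of the scale to Nfix at the bottom, and Nr2e1 in WT replicate 2, at -1.84, stands apart from the other 3 WT cultures.

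Tested over libraries, footprints differed from RNA in KO cultures for 5 of 8 genes, where 57.2% of 10060 genes differed, 28.4% higher in footprints and 28.7% lower. The main fits, in KO and in WT, take footprint and RNA libraries of one lysate as independent. A fit blocked on replicate number was run for WT only. Emx2 (log2 fold change of footprints over RNA 1.22, SE 0.25, edgeR adjusted p = 0.00247) and Nfib (0.83, SE 0.26, edgeR adjusted p = 0.0225) were higher in footprints. Nfix (-1.27, SE 0.28, edgeR adjusted p = 0.00378), Pax6 (-0.68, SE 0.19, edgeR adjusted p = 0.0116) and Nr2e1 (-0.68, SE 0.21, edgeR adjusted p = 0.0190) were lower. In WT cultures 1 of 8 passed, against 44.9% of 9993 genes (22.7% higher in footprints): Emx2, higher in footprints, at 1.49 (SE 0.26, edgeR adjusted p = 0.00139). The WT values of Nfib (0.81, SE 0.31, edgeR adjusted p = 0.0555), Nfix (-1.13, SE 0.45, edgeR adjusted p = 0.0647) and Pax6 (-0.60, SE 0.26, edgeR adjusted p = 0.0879) had the same signs as in KO. Blocking on replicate number, these 3 passed too, making 4 of 8 in WT, at edgeR adjusted p = 0.00265 for Nfib, 4.33e-05 for Nfix and 0.0211 for Pax6. Of the 9993 genes, the blocked fit called 3636 higher in footprints and 3439 lower. Without WT replicate 1, Nfix passed as well (-1.35, edgeR adjusted p = 0.0135). The difference between the genotypes is the translational efficiency test above, which no member passed.

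Members were also compared between the sets of cultures. Taking each library as independent, Sox9 and Sox2 were lower in replicates 3 and 4 than in replicates 1 and 2 in both assays, and Nfib was lower in RNA. In footprints, Sox9 averaged 142 ± 19.5 CPM in replicates 3 and 4 and 418 ± 159.6 CPM in replicates 1 and 2 (SD, n = 4 each, KO and WT together). Sox2 footprints averaged 144 ± 25.6 CPM in replicates 3 and 4 and 267 ± 66.4 CPM in replicates 1 and 2. In RNA, Sox9 averaged 185 ± 31.1 CPM in replicates 3 and 4 and 396 ± 173 CPM in replicates 1 and 2. Sox2 RNA averaged 138 ± 16.2 CPM in replicates 3 and 4 and 258 ± 35.1 CPM in replicates 1 and 2, and Nfib RNA 142 ± 24.2 CPM in replicates 3 and 4 and 256 ± 63.7 CPM in replicates 1 and 2.

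With genotype in the model, the log2 fold change of replicates 3 and 4 over 1 and 2 in footprints was -1.52 for Sox9 (SE 0.26, edgeR adjusted p = 0.0136) and -0.87 for Sox2 (SE 0.21, edgeR adjusted p = 0.0282). That fit takes same-numbered KO and WT libraries as independent, whereas they deviated together. These 2 of 8 genes were called, both lower, where 19% of all genes were called and 11.5% were lower. In RNA it was -1.06 for Sox9 (SE 0.27, edgeR adjusted p = 0.0257), -0.90 for Sox2 (SE 0.16, edgeR adjusted p = 0.00971) and -0.85 for Nfib (SE 0.21, edgeR adjusted p = 0.0231). In RNA 3 of 8 were called, all lower, where 25.2% of all genes were called and 13.1% were lower. Ranges did not overlap for Sox2 and Sox9 in footprints (lower without overlap: 16% of all genes) and for Sox2, Sox9, Nfib and Nfia in RNA (14.6%). Nfia RNA (-0.47, SE 0.17, edgeR adjusted p = 0.0698) and Nfix footprints (-0.90, SE 0.29, edgeR adjusted p = 0.0662) did not pass. Pax6, Nr2e1 and Emx2 passed in neither assay, with footprint log2 fold changes of 0.20, 0.00 and -0.09.

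With the counts of same-numbered KO and WT libraries summed, which leaves 2 sums against 2, 0 of 8 genes passed in either assay. The log2 fold changes were then -1.54 for Sox9 footprints (SE 0.23, edgeR adjusted p = 0.0561), -0.89 for Sox2 footprints (SE 0.21, edgeR adjusted p = 0.0792), -1.08 for Sox9 RNA (SE 0.29, edgeR adjusted p = 0.0893), -0.90 for Sox2 RNA (SE 0.21, edgeR adjusted p = 0.0764) and -0.84 for Nfib RNA (SE 0.25, edgeR adjusted p = 0.105). Of all genes, that fit called 27 higher and 32 lower in RNA, and 11 higher and 69 lower in footprints. In the fit over 8 libraries, Sox2 RNA kept its call when each of the 8 libraries was left out in turn, with an edgeR adjusted p of 0.0162 to 0.0362. Sox2 footprints lost it in 5 of 8, at an edgeR adjusted p of 0.0619 without KO replicate 1, 0.0581 without KO replicate 2, 0.0674 without KO replicate 4, 0.0751 without WT replicate 3 and 0.0632 without WT replicate 4. Sox9 footprints lost it without WT replicate 3 (edgeR adjusted p = 0.0522), and Sox9 RNA without KO replicate 3 (0.0519), WT replicate 3 (0.0675) or WT replicate 4 (0.0831). Nfib RNA lost it without KO replicate 2 (edgeR adjusted p = 0.0773), KO replicate 4 (0.0571), WT replicate 2 (0.0537), WT replicate 3 (0.0550) or WT replicate 4 (0.0718). The log2 fold changes stayed below 0 throughout, at -1.65 to -1.25 for Sox9 footprints and -1.19 to -0.75 for Sox9 RNA.

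**Figure D5:**
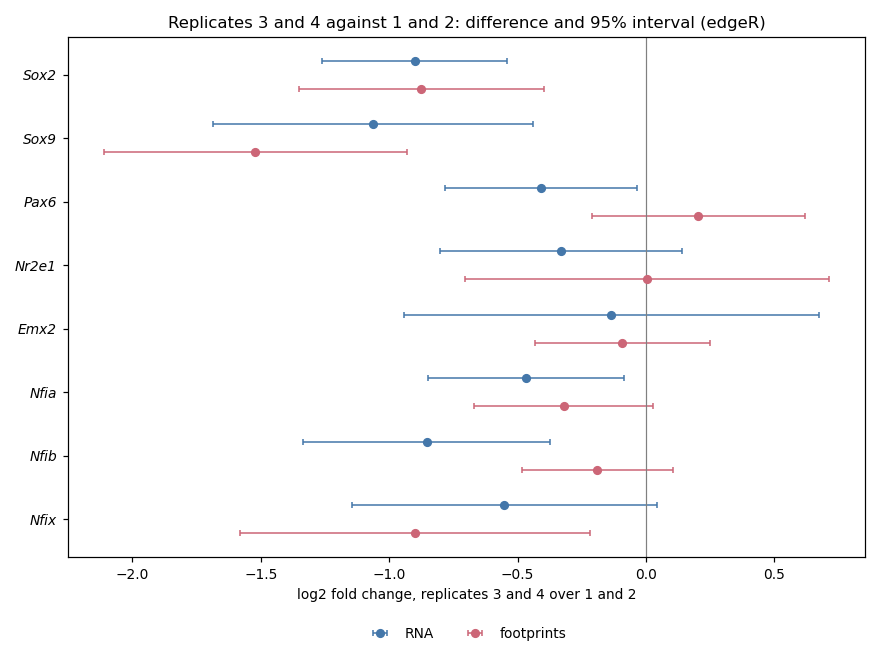
Difference between replicates 3 and 4 and replicates 1 and 2 (log2 fold change, genotype in the model, each library taken as independent) for each gene in RNA and footprints, with points for the edgeR estimate and bars for the 95% interval. Sox9 and Sox2 lie below 0 in both assays, and Nfib lies further below 0 in RNA (-0.85) than in footprints (-0.19).

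The summed level of astrocyte markers differed between the same sets of cultures. The 10 markers summed to 2239.5 and 1559 CPM in KO footprints of replicates 3 and 4 and to 645 and 669 CPM in WT ones, against 3889.6 and 3999 CPM in KO footprints of replicates 1 and 2 and 4748 and 1879 CPM in WT ones. In RNA the sums were 1499 and 997 CPM in KO and 586 and 703 CPM in WT for replicates 3 and 4, against 3155 and 2767 CPM in KO and 3684 and 1148 CPM in WT for replicates 1 and 2. Within each genotype the sums of replicates 3 and 4 lay below those of 1 and 2 in both assays, and WT replicate 1, highest for Sox9, was highest in this sum too. Gjb6 was at 0 in every library of WT footprints and KO RNA. Sparcl1 alone was at 1195 CPM or more in every KO footprint library, a large part of those sums. Taking each library as independent, Aldoc fell in replicates 3 and 4 in RNA (edgeR adjusted p = 0.0337) and footprints (0.0203). Sparcl1 fell in RNA (edgeR adjusted p = 0.0206) and did not pass in footprints (0.119). Aqp4 did not pass in footprints (log2 fold change -0.32, SE 1.05, edgeR adjusted p = 0.853). The part of these markers in the Sox9 and Sox2 difference was not tested.

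Footprints per RNA were compared between the sets of cultures after the members' values had been seen. By edgeR 0 of 8 genes passed, with 0% of all genes, DESeq2 and limma-voom called 0 members, and 2 members had an unadjusted p under 0.05, as 14.6% of genes did. These were Nfib, at 0.68 (SE 0.23, edgeR adjusted p = 0.246), and Pax6, at 0.63 (SE 0.22, edgeR adjusted p = 0.252). Pax6 had a footprint to RNA ratio of 0.615 to 0.749 in replicates 3 and 4 and of 0.384 to 0.536 in replicates 1 and 2, without overlap, as 8.99% of genes were higher in replicates 3 and 4. Sox9 ran the other way, also without overlap (9.46% of genes), with ratios of 0.673 to 0.873 in replicates 3 and 4 and 0.980 to 1.197 in replicates 1 and 2, and a log2 difference of -0.43 (SE 0.37, edgeR adjusted p = 0.621).

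Across the 16 libraries the members ranged from variable to steady. The root mean square deviation of log2 CPM from the assay mean was 0.73 for Sox9, the 88.5th percentile of 9425 genes, 0.53 for Nfix and 0.49 for Sox2. It was 0.37 for Nfib and 0.33 for Nr2e1, and 0.26 for Nfia, 0.26 for Pax6 and 0.24 for Emx2, the last at the 18.6th percentile. Emx2 deviated by 0.11 in footprints and 0.32 in RNA, whereas Nr2e1 deviated by 0.39 in footprints and 0.25 in RNA.

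Likeness of profiles was described by the root mean square difference between centred log2 CPM over the 16 libraries, where a smaller value means more alike. All libraries of a culture share a lysate. Among members, Nfia and Nfib were closest, at 0.19, then Pax6 and Nr2e1, at 0.21, and Sox2 and Nfix, at 0.29. Pax6 was the second closest of 9424 genes to Nr2e1, between Mark3 at 0.19 and Tfdp2 at 0.21. Sox9 and Nr2e1 were furthest apart, at 0.77. For Sox2 the 3 closest genes were Mkrn1 (0.14), Mical3 (0.16) and Arnt2 (0.17), and those of Sox9 included Lrrc8a (0.18) and Prnp (0.20). Rfk (0.12), Dpy19l1 (0.14) and Mark3 (0.15) were closest to Pax6. Emx2 was nearest to Zfp526 (0.17), Golga7 (0.18) and Dctn5 (0.19). Among the NFI genes, Nfia was nearest to Zadh2, St13 and Rbm33 (0.13 each), Nfib to Zfp318 (0.10), Uhrf1bp1l (0.14) and Gid4 (0.15), and Nfix to Tnk2 (0.20), Sybu (0.22) and Zfp36l2 (0.22).

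Related genes were followed in lists. None of the lists held a gene that passed between KO and WT in RNA, footprints or translational efficiency by edgeR. Among the other SOX genes, 10 of 17 were tested in each comparison and 0 passed, with 0 at an unadjusted p under 0.05. The most abundant were Sox4, a factor of neuronal differentiation, at a footprint log2 fold change of KO over WT of -0.41 (SE 0.30), and Sox8, a relative of Sox9, at -0.27 (SE 0.20). The other NFI, PAX, EMX and NR2 genes gave 0 of 8 in RNA and 0 of 7 in footprints. Nfic, the remaining NFI gene, had 0.43 (SE 0.29) in RNA and 0.31 (SE 0.14) in footprints, and Nr2f1, a nuclear receptor of cortical patterning, -0.09 (SE 0.29) in RNA and -0.02 (SE 0.19) in footprints.

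Other transcription factors of neural stem cells gave 0 of 30 in RNA and in footprints, with 2 in RNA and 6 in footprints at an unadjusted p under 0.05, against 1.87% of all genes in RNA and 4.59% in footprints. In the other lists that number was 1 for families in footprints (Pax9, at 1.36, SE 0.50, named after its values were seen) and 0 in RNA, 2 for neuronal factors in each assay, and 1 in each assay for oligodendrocyte factors, targets and cofactors. Of the other stem cell factors, the most abundant in RNA were Rfx4 and Zeb1. Rfx4 had 0.52 (SE 0.20) in RNA and 0.51 (SE 0.12) in footprints, and Zeb1 -0.20 (SE 0.38) in RNA and -0.01 (SE 0.14) in footprints. Factors of the neuronal lineage gave 0 of 8 in RNA and 0 of 10 in footprints. Prox1, a factor of granule neurons in the dentate gyrus, had -0.90 (SE 0.64) in RNA and -0.86 (SE 0.34) in footprints, and Myt1, a zinc finger factor, -0.66 (SE 1.06) in RNA and 0.00 (SE 0.79) in footprints. Oligodendrocyte factors gave 0 of 6 in RNA and 0 of 5 in footprints. Olig2 had -0.05 (SE 0.24) in RNA and -0.08 (SE 0.15) in footprints, and Olig1 0.20 (SE 0.26) in RNA and 0.03 (SE 0.18) in footprints. Nkx2-2, a homeobox factor of oligodendrocyte precursors named after its values were seen, averaged 3.38 ± 3.64 CPM in KO footprints and 41.0 ± 8.32 CPM in WT footprints, and 5.07 ± 3.98 CPM in KO RNA and 53.6 ± 11.8 CPM in WT RNA (SD, n = 4 each). Its ranges did not overlap in either assay, and it did not pass over all genes (log2 fold change -3.86, SE 0.66, edgeR adjusted p = 0.232 in footprints, and -3.40, SE 0.70, edgeR adjusted p = 0.927 in RNA). Cofactors reported for the members gave 0 of 16 in both. The chromatin remodeller Smarca4 had 0.16 (SE 0.19) in RNA and 0.13 (SE 0.15) in footprints, and the acetyltransferase gene Crebbp -0.02 (SE 0.25) in RNA and -0.09 (SE 0.11) in footprints. Elp4, which overlaps Pax6, had -0.09 (SE 0.24) in RNA and 0.05 (SE 0.13) in footprints.

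Genes reported as targets of the members gave 0 of 14 in RNA and 0 of 15 in footprints between KO and WT. Nes, which Sox2 activates, had -0.04 (SE 0.23) in RNA and 0.04 (SE 0.18) in footprints, and the glial glutamate transporter gene Slc1a3 0.12 (SE 0.43) in RNA and 0.18 (SE 0.22) in footprints. Sparcl1, a secreted glycoprotein gene of astrocytes named after its values were seen, averaged 1478 ± 260.1 CPM in KO footprints and 273 ± 163 CPM in WT footprints, and 891 ± 269 CPM in KO RNA and 150.3 ± 102 CPM in WT RNA (SD, n = 4 each). Its ranges did not overlap in either assay, and it did not pass over all genes (log2 fold change 2.62, SE 0.39, edgeR adjusted p = 0.189 in footprints, and 2.57, SE 0.54, edgeR adjusted p = 0.973 in RNA). Between the sets of cultures, targets did pass. In replicates 3 and 4 against 1 and 2, 8 of 14 fell and 1 rose in RNA, and 7 of 15 fell in footprints. Of all genes, 13.1% fell in RNA and 11.5% in footprints. These counts come from the fit that takes all 8 libraries as independent. The target list was chosen with earlier results of these data known, and the activity of the members was not tested. Targets were not counted in the fit with same-numbered libraries summed. Slc1a3 fell by 1.17 (SE 0.20, edgeR adjusted p = 0.00932) on the log2 scale in RNA and by 0.90 (SE 0.22, edgeR adjusted p = 0.0319) in footprints. Gfap, Mmd2, Apcdd1 and Zcchc24 were chosen after their values were seen. Gfap, the astrocyte intermediate filament gene and an NFI target, fell by 4.94 (SE 0.33) in RNA and by 4.07 (SE 0.63) in footprints. Mmd2 and Apcdd1, reported as joint targets of Sox9 and Nfia in spinal cord, fell in RNA, Mmd2 by a log2 change of -5.04 (SE 0.68) and Apcdd1 by one of -2.24 (SE 0.38). In footprints both fell too, Mmd2 at -3.97 (SE 0.84) and Apcdd1 at -2.14 (SE 0.43). Zcchc24, reported with them, had -0.35 (SE 0.19, edgeR adjusted p = 0.190) in RNA and -0.08 (SE 0.22, edgeR adjusted p = 0.823) in footprints and did not pass. Nes had 0.45 (SE 0.16, edgeR adjusted p = 0.0699) in RNA and 0.61 (SE 0.18, edgeR adjusted p = 0.0540) in footprints and did not pass. Aldoc, Aqp4 and Sparcl1 are also among the 10 astrocyte markers, and Gfap and Slc1a3, which astrocytes express too, are among the 14 stem and progenitor markers, so this count overlaps those lists.

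Other SOX genes were followed between these cultures too, in the same fit. In footprints 5 of 10 fell and 1 rose in replicates 3 and 4, and in RNA 4 of 10 fell and 1 rose, against 11.5% of all genes lower in footprints and 13.1% in RNA. Sox4 fell by 1.60 (SE 0.21, edgeR adjusted p = 0.00697) in RNA and by 1.38 (SE 0.31, edgeR adjusted p = 0.0243) in footprints. Sox8 had 0.05 (SE 0.21) in RNA and -0.52 (SE 0.20, edgeR adjusted p = 0.101) in footprints and passed in neither. The other NFI, PAX, EMX and NR2 genes gave 1 higher and 1 lower of 8 in RNA and 0 of 7 in footprints. Oligodendrocyte factors gave 0 of 6 in RNA and 0 of 5 in footprints. Of the other stem cell factors, 9 of 30 fell and 2 rose in RNA, and 7 of 30 fell in footprints. Neuronal factors gave 2 lower and 1 higher in each assay, of 8 in RNA and 10 in footprints. Of 16 cofactors, 3 fell in RNA and 4 in footprints.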

How the data were processed

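Per the labels' protocols, cytoplasmic RNA came from part of each lysate, and footprints from the monosome fraction of the rest after digestion with RNase A and RNase T1. Without role or order, RSEM 1.2.11, TopHat2 2.0.9, Bowtie2 2.1.0, cutadapt 1.7.1, bedtools 2.22.0, SAMtools 0.0.19 and build mm10 are listed, per the submitters' processing notes. The authors deposited RSEM estimated counts per gene, already whole numbers, and TPM rounded to whole numbers, treated as a score. How identifiers were collapsed is not given in the sources used here. Of 20436 rows, 27 without a gene symbol (0.244% to 0.422% of a library's counts) were left out.

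Counts were tested with edgeR 4.0.16 in R 4.3.3: low genes removed by filterByExpr with genotype as the group, TMM scaling, then two-sided quasi-likelihood tests (glmQLFit, glmQLFTest), Benjamini-Hochberg adjustment over all genes and a threshold of 0.05. All 8 members passed the filter in each comparison. RNA was fitted with genotype, footprints with genotype and identifier length, and translational efficiency as an interaction over 16 libraries. The SE is the log2 fold change over the root of F, and log2 CPM used a prior count of 2. Counting errors cover counting only. Alternatives were DESeq2 1.42.0, limma 3.58.1 (voom, and log2 of TPM plus 1 or 0.5), RLE scaling, no filter, a replicate block, and each library left out.

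Replicate numbers come from the sample titles. The correlation of deviations from group means, for KO and WT libraries of one number, was 0.481 to 0.613 over the 4 RNA pairs; the 4 footprint pairs gave 0.379 to 0.540. Every same-numbered pair was above 0.1, so numbers were taken to pair the samples. That limit cannot tell pairing by number from the split between the sets of cultures, since some differently numbered pairs passed it too. In RNA, KO replicate 4 with WT replicate 3 gave 0.368. In footprints, KO replicate 2 gave 0.453 with WT replicate 1 and 0.379 with WT replicate 2. Every other KO library correlated most with its same-numbered WT library, and pairs across the sets were all negative. No pair of libraries held identical values.

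The members and lists were chosen with earlier results of these data known. Named were Fmr1, the members, the 3 genes most alike to each (mean of at least 5 CPM in each assay), and from each list any gene past the threshold between genotypes and the 2 most abundant in RNA. One gene that this rule names is not reported here. RefSeq matched 19269 symbols.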

Additional observations from a re-analysis of the deposited data

Results flagged for a closer look

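In 54 groups of 4 values for the 8 members and Fmr1, 3 held a value further from its neighbour than Dixon's limit allows, and chance gives about 1 such group in 20 groups. For Nr2e1 the log2 ratio of footprint to RNA CPM was -1.84 in WT replicate 2, against -0.35 to -0.31 in the other WT cultures. Fmr1 had 129 CPM in footprints of WT replicate 1, below the other WT libraries at 148.7 to 149.8 CPM. Fmr1 RNA had 106.8 CPM in WT replicate 2, above the other WT libraries at 27.4 to 40.9 CPM.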

How the results depend on the processing

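The call between KO and WT, 0 of 8 members in RNA, footprints and translational efficiency, was the same under every alternative run, the replicate block included. Over all genes, DESeq2 called 13 higher and 7 lower in KO RNA, against 1 and 0 with edgeR, and 56 higher and 26 lower in KO footprints, against 3 and 1 with edgeR. For the interaction of genotype and replicate set in footprints, DESeq2 called 27 genes and edgeR 0. The block raised the count of members with footprints unlike RNA in WT cultures to 4, against 1 without it, and changed no member's call between KO and WT. Of 9993 genes in that WT comparison, the block called 3636 higher and 3439 lower, against 2272 and 2211 without it. The count of members there was 3 with DESeq2 and with limma-voom (Emx2, Nfib and Nfix) and 1 to 2 with 1 culture left out. DESeq2 called 2442 genes higher and 2532 lower there, and limma-voom 2340 and 2204. Between replicates 3 and 4 and replicates 1 and 2, the count was 1 to 4 in RNA and 0 to 3 in footprints with 1 library left out, the 0 being without WT replicate 3. With same-numbered KO and WT libraries summed it was 0 in RNA and 0 in footprints. DESeq2 also called Nfia RNA and Nfix footprints between these sets. Over all genes, DESeq2 there called 1720 higher and 2068 lower of 11097 in RNA, against 1339 and 1457 with edgeR. In footprints it called 1545 higher and 1853 lower of 11472, against 867 and 1318 with edgeR.

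Signs of small log2 differences turned with the processing, and the cause was not tested. With limma-voom the value was 0.032 for Nr2e1 in footprints, KO over WT, and -0.0056 for Sox9 in footprints over RNA in WT, and 0.0017 for Emx2 in the interaction of genotype and replicate set in footprints, and 0.00025 for Nfia in footprints over RNA in KO. With no filter the value was -0.0088 for Nr2e1 in footprints, replicates 3 and 4 over 1 and 2, and -0.010 for Sox2 in translational efficiency, replicates 3 and 4 over 1 and 2. With RLE scaling the value was -5.8e-05 for Sox2 in translational efficiency, replicates 3 and 4 over 1 and 2. With DESeq2 the value was -0.00021 for Sox2 in translational efficiency, replicates 3 and 4 over 1 and 2. With the replicate block the value was 0.0075 for Nr2e1 in footprints, KO over WT. With replicates 1 and 2 alone the value was -0.12 for Nfia in RNA, KO over WT, and 0.20 for Nr2e1, -0.095 for Nfia, -0.057 for Nfix in footprints, KO over WT, and 0.10 for Pax6, 0.095 for Nr2e1 in translational efficiency, KO over WT. With replicates 3 and 4 alone the value was 0.018 for Sox2, 0.043 for Sox9, -0.47 for Emx2 in RNA, KO over WT, and 0.067 for Sox2, 0.23 for Sox9 in footprints, KO over WT, and 0.032 for Sox2, 0.35 for Emx2, -0.11 for Nfib, 0.059 for Nfix in translational efficiency, KO over WT. With same-numbered libraries summed the value was -0.022 for Nr2e1 in footprints, replicates 3 and 4 over 1 and 2. With 1 library or culture left out, the lowest and highest values were -0.13 to 0.15 for Nfia, -0.18 to 0.37 for Nfib, -0.0084 to 0.46 for Nfix, -0.31 to 0.14 for Sox2, -0.67 to 0.15 for Sox9 in RNA, KO over WT. They were -0.11 to 0.36 for Nfix, -0.32 to 0.17 for Nr2e1, -0.29 to 0.041 for Sox2, -0.38 to 0.061 for Sox9 in footprints, KO over WT. They were -0.088 to 0.22 for Nfia, -0.22 to 0.37 for Nfib, -0.22 to 0.077 for Nfix, -0.21 to 0.068 for Pax6, -0.24 to 0.21 for Sox2, -0.10 to 0.48 for Sox9 in translational efficiency, KO over WT. They were -0.17 to 0.024 for Nfia, -0.014 to 0.22 for Sox9 in footprints over RNA in WT. They were -0.32 to 0.050 for Emx2 in RNA, replicates 3 and 4 over 1 and 2. They were -0.25 to 0.23 for Nr2e1 in footprints, replicates 3 and 4 over 1 and 2.

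The comparisons of footprints with RNA in KO cultures and of footprints per RNA between the sets of cultures, the block by culture, the summing of same-numbered libraries, and RLE scaling for these were chosen after seeing the data. Depth limits Emx2 RNA most, at 24 counts in the lowest library.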
